A study of Homo sapiens with 4 samples.

Results

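PADI1, PADI2, PADI3 and PADI4 encode the peptidylarginine deiminases, and they were taken from the deposited tables by gene name, 4 of the 58735 genes measured. The group was proposed with earlier results of these data known, and it was selected on the measured ratio of PADI3 in U251, so the values of its members are a description and were not tested. Each of the 4 names matched 1 gene, and only 1 of them, PADI3, reached the expression filter used below, an average FPKM of 1 or more across all 4 libraries, and it did so through the U251 Control library alone. FPKM is a count of fragments divided by gene length and library size.

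Peptidylarginine deiminases are calcium-dependent enzymes that turn arginine residues of proteins into citrulline, which removes a positive charge and can loosen the fold of the target. PADI1 and PADI3 are known from the epidermis and the hair follicle, where they act on filaggrin, keratins and trichohyalin, PADI2 is the broadly expressed form of brain and muscle that acts on myelin basic protein, vimentin and GFAP, and PADI4 is the nuclear form of granulocytes that acts on histones. PADI6, the remaining member of the family, is an oocyte protein, and it was followed beside the others.

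The cell lines U251 and U87, both established from human glioblastoma, were each represented by 1 Control library and 1 Bru library, 4 in all. Bru is brusatol, a quassinoid from Brucea javanica known to block protein synthesis, and the treated cells received it for 48 h at an inhibitory concentration that the labels do not give in numbers. The labels name the Control cells only as control, and what they received in place of Bru before sequencing is not given in the sources used here, although the study used DMSO as control in other assays. No condition was replicated, so no difference below has a replicate check, and each 95% interval covers counting error only. Each library held between 17083896 and 21453561 reads on genes, where a read is a counted fragment recovered from the FPKM. In such bulk samples, fewer cells with a transcript and less of it per cell cannot be told apart. Of 7 neural and glial markers, 4 or 5 had over 3 reads in each library, VIM at an FPKM of 606 to 701, whereas AQP4 had at most 2 reads, S100B had 9 reads in U251 Control and 0 elsewhere, and SOX2 had 6790 and 4248 reads in U251 but 0 and 2 in U87. GFAP, the astrocyte filament and a deimination target, had an FPKM of 2.42 without and 1.08 with Bru in U251, and of 0.215 and 0.147 in U87. NES had an FPKM of 125 without and 50.6 with Bru in U251 (log2 ratio -1.30), and of 1.46 and 0.569 in U87 (-1.23). OLIG2 had 2 and 4 reads in U251 and 38 and 61 in U87.

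All members lie together on chromosome 1 of GRCh38, and the cluster with PADI6 spans 335 kb from 17066761 to 17401699. PADI2 (ENSG00000117115) is on the minus strand from 17066761 to 17119435. PADI1 (ENSG00000142623) follows on the plus strand from 17205126 to 17246005, PADI3 (ENSG00000142619) from 17249098 to 17284233, PADI4 (ENSG00000159339) from 17308195 to 17364004 and PADI6 (ENSG00000276747) from 17372196 to 17401699. Each has 16 exons in the transcript with its longest coding sequence.

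The coding sequences around the catalytic cysteine codon of PADI1, PADI2 and PADI4, and around the aligned codon of PADI6, are shown because PADI1 to PADI4 share this residue. The capitals mark the last codon at which PADI1 to PADI4 all encode cysteine, the nucleophile of the reaction, and PADI6 has another codon there. Sequences run 5′ to 3′ and come from the transcripts of GENCODE 29.
PADI1 (codon 645 of 663): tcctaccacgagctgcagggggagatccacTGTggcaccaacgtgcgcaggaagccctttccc
PADI2 (codon 647 of 665): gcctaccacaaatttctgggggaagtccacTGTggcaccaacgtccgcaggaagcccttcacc
PADI4 (codon 645 of 663): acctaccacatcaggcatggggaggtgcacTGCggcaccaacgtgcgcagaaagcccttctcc
PADI6 (codon 676 of 694): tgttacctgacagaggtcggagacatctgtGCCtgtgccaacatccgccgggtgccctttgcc

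Over the whole coding sequence PADI1 was 67.1% identical to PADI4 and 62.7% to PADI2, and PADI2 was 61.2% identical to PADI4. No 50-base stretch of PADI1, PADI3 or PADI6 transcripts was found in a transcript of another gene on either strand. Such stretches made up 0.284% of PADI2 and 1.44% of PADI4, so reads of those 2 genes are slightly less certain. No gene on the other strand overlapped a member.

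PADI3 was the most abundant deiminase transcript in each library, and among the members it alone had over 20 reads in each of them. In U251 its FPKM was 23.5 without Bru, from 1572 reads, and 0.694 with Bru, from 41 reads. In U87 it was 1.51 without Bru, from 87 reads, and 0.486 with Bru, from 27 reads. The U251 Control library stood far above the other 3, and in both lines the Control library was above the Bru library.

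In U251 the PADI3 level was 33.9-fold lower in Bru than in Control by reads (95% exact interval 24.9 to 47.4). The log2 ratio on FPKM + 0.1, which keeps low values from giving extreme ratios, was -4.89. This was the lowest of the 10851 protein-coding genes past the filter and rank 9 from the bottom of all 12949 genes past it. The members were chosen for this contrast, so the rank is a description. In U251, 5.44% of the 12949 genes were lower past 2-fold and 3.36% were higher.

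In U87 the PADI3 level was 3.10-fold lower in Bru, a log2 ratio by reads of -1.63 (95% exact interval -2.31 to -0.997). The log2 ratio on FPKM + 0.1 was -1.46, and 1.41% of the 12949 genes were lower past 2-fold in this line. This was rank 16 from the bottom of the 10851 protein-coding genes past the filter and rank 84 of all 12949 genes past it. PADI3 passed that filter through U251 Control alone. With a pseudocount of 1 in place of 0.1 the U87 log2 ratio was -0.76, which no longer passes 2-fold.

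The difference between the lines in the PADI3 response was -3.44 on the log2 scale, with the ratio in U251 the lower one. By reads without a pseudocount it was -3.45 (95% exact conditional interval -4.25 to -2.62). The lines also started apart, since untreated U87 held 15.6-fold less PADI3 than untreated U251 (95% exact interval 12.5 to 19.5), where 30.4% of the genes were past 2-fold in either direction and 16% were lower in U87. After Bru, U87 held 1.43-fold less than U251 (95% exact interval 0.856 to 2.41). The treated libraries were therefore not separated in PADI3 beyond counting error, a comparison that was added after the values were seen.

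**Figure D1:**
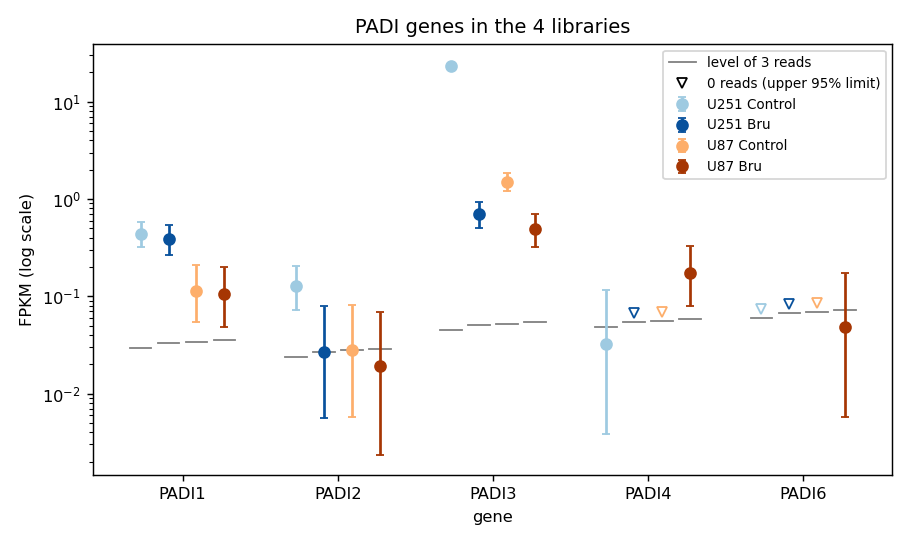
FPKM of PADI1, PADI2, PADI3, PADI4 and PADI6 on a log axis in the 4 libraries, with exact 95% counting intervals as bars, the level of 3 reads as grey ticks and open triangles at the upper 95% limit where no read was counted. PADI3 in U251 Control, at an FPKM of 23.5, stands above every other point, and most points of PADI2, PADI4 and PADI6 sit near the level of 3 reads.

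PADI3 lay above 91.6% of the genes with a read in U251 Control and above 44.2% of them in U251 Bru. In U87 it lay above 53.9% in Control and above 39.9% in Bru. It made up 97.5% of the summed FPKM of PADI1 to PADI4 without Bru and 62.7% with Bru in U251, and 91.5% and 62.0% in U87. The summed FPKM of the 4 genes was 24.1 without and 1.11 with Bru in U251, and 1.65 and 0.785 in U87. PADI4 made up 22.2% of the sum in U87 Bru, from only 9 reads, and none of it in U87 Control, from 0 reads.

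PADI1, the neighbour of PADI3 on the same strand, whose enzyme works with it in the epidermis, did not show a difference of this kind. In U251 its FPKM was 0.438 without Bru and 0.385 with it, from 45 and 35 reads, and in U87 it was 0.113 and 0.105, from 10 and 9 reads. Bru and Control lay close together within each line, and the 2 U251 libraries were above the 2 U87 libraries. The log2 ratio of Bru to Control by reads was -0.18 in U251 (95% exact interval -0.86 to 0.49) and -0.10 in U87 (-1.57 to 1.36), so that in U251 a 2-fold difference lay outside the interval and in U87 it did not. Untreated U87 held 3.88-fold less PADI1 than untreated U251 (95% exact interval 1.93 to 8.63), and after Bru the gap was 3.65-fold (1.72 to 8.64), where 29.2% of the genes were past 2-fold in either direction.

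PADI2, the brain form, was close to the limit of the depth. It had 16 reads without and 3 with Bru in U251, FPKM of 0.127 and 0.0271, and 3 and 2 reads in U87, FPKM of 0.0277 and 0.0192. Only the U251 Control library was above 3 reads. There the level by reads was 4.71-fold lower in Bru (95% exact interval 1.35 to 25.2), and the log2 ratio on FPKM + 0.1 was -0.84, which ran from -1.89 to -0.13 with other pseudocounts. Both U87 libraries were at or under 3 reads, so no ratio is given for U87.

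PADI4, the granulocyte form, had 2 reads without and 0 with Bru in U251, and 0 and 9 in U87. The U87 Bru library, at an FPKM of 0.174, was the one library above 3 reads. With U87 Control set to the floor of 3 reads, PADI4 was 3.11-fold higher in U87 Bru. This value leaves out the counting error of the 9 reads and is no lower limit. The exact upper 95% limit at 0 reads was an FPKM of 0.0670 in U251 Bru and 0.0687 in U87 Control. The 7 neutrophil and myeloid markers had a summed FPKM of 0.274 without and 0.683 with Bru in U87, and of 0.353 and 0.808 in U251. CSF3R was at 0 in each library, MPO had at most 1 read and ELANE at most 2, while ITGAM, an integrin of myeloid cells, had 8 reads without and 37 with Bru in U87, and 1 and 13 in U251. CD14, another of these markers, had 3 reads without and 8 with Bru in U87, and 13 and 23 in U251. LYZ had at most 2 reads and PTPRC at most 3. The part of these markers in the PADI4 reads was not tested.

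PADI6 had 2 reads in U87 Bru, an FPKM of 0.0480, and 0 in the other libraries. The exact upper 95% limit at 0 reads was an FPKM of 0.0734 to 0.0852 in those libraries. It was not detectable above 3 reads at this depth. Of the 6 keratinocyte markers, KRT10 had 836 to 1060 reads in each library, and TP63, a factor of basal keratinocytes, had 16 reads in U251 Control, 0 in U251 Bru and U87 Control and 1 in U87 Bru. KRT1, KRT5, KRT14 and DSG3 had at most 3 reads.

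The microRNA gene MIR3972 (ENSG00000266634) lies inside PADI3, on the same strand at chr1:17277889-17277975 of GRCh38, within intron 13, which runs from 17276877 to 17280349. Its sequences from RefSeq (GRCh38.p14) are shown because this hairpin is the one part of the PADI3 introns that the tables count on its own. The capitals mark the seed, bases 2 to 8 of the mature form.
hsa-miR-3972: cUGCCAGCcccguuccagggca
MIR3972 hairpin: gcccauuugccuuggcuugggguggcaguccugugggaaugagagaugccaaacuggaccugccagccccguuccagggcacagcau

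MIR3972 had 6 reads without and 0 with Bru in U251, and 1 and 0 in U87. With U251 Bru set to the floor of 3 reads it was 1.77-fold lower there, and no ratio is given for U87. This value leaves out the counting error of the 6 reads and is no lower limit. The order of the libraries was that of PADI3 in Control, at counts too low for more. The mature microRNA was not measured.

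The genes around the cluster did not share the PADI3 difference. The window of 500 kb on each side held 42 genes, of which 11 outside the PADI family passed the filter, 2 of them (MFAP2 and BX284668.5) with at most 3 reads in U251. None of the 11 passed 2-fold in either line, beside the 8.8% of all genes that did in U251 and the 3.34% in U87. Their log2 ratios ran from -0.71 to 0.74 in U251 and from -0.77 to 0.20 in U87.

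RCC2, a regulator of chromosome condensation 5.06 kb beyond PADI6, had an FPKM of 77.7 without and 47.5 with Bru in U251, and of 30.9 and 27.5 in U87. SDHB, the iron-sulfur subunit of succinate dehydrogenase 12.6 kb before PADI2, had 33.8 and 56.5 in U251 and 53.6 and 61.7 in U87, the opposite direction to RCC2 in both lines. ATP13A2, a lysosomal polyamine transporter, had a log2 ratio of -0.56 in U251 and of -0.38 in U87.

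MFAP2, a microfibril protein, had 0 and 3 reads in U251 and was above 3 reads in U87 alone, with 544 in Control and 306 in Bru. ALDH4A1, the third expressed gene on the far side although 1470 kb away, had log2 ratios of -0.07 and -0.05. Between PADI2 and PADI1, the noncoding gene AL590644.1 had 74 and 46 reads in U251 and 12 and 6 in U87. Its log2 ratio by reads was -0.51 in U251 (95% exact interval -1.07 to 0.04) and -0.95 in U87 (-2.65 to 0.58), so both intervals reach 0. AL590644.3, on the strand opposite to it, had 0 reads in each library.

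**Figure D2:**
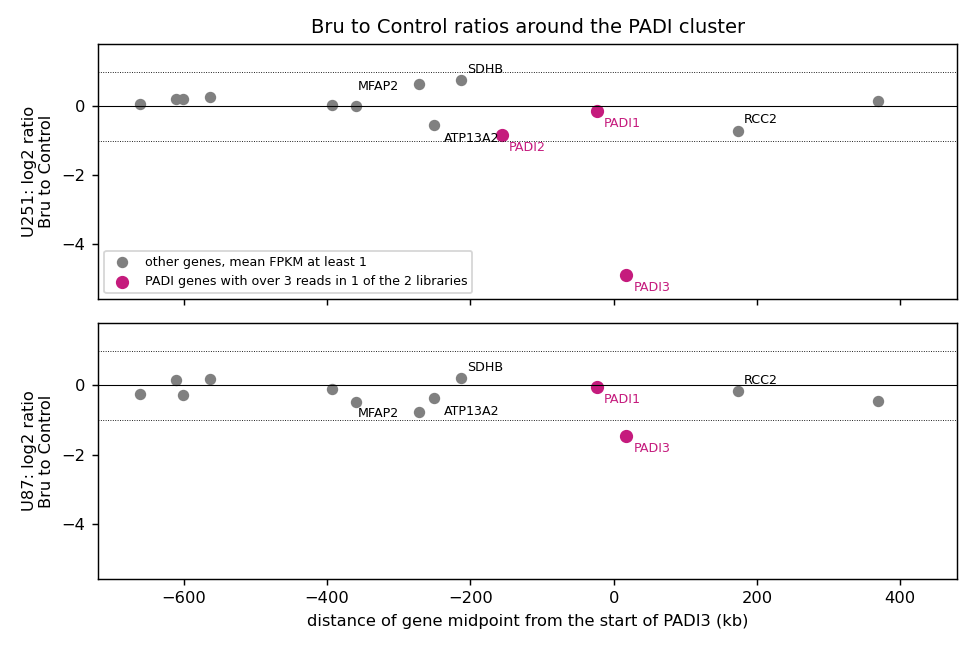
Bru to Control log2 ratio, on FPKM + 0.1 (vertical axis) against the distance of each gene's midpoint from the start of PADI3 in kb (horizontal axis), in U251 above and U87 below, with dotted lines at 2-fold. PADI3 lies at -4.89 and -1.46, while the 11 other expressed genes lie between the dotted lines.

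The promoters of the other members are shown because the transcription factors described for this family were followed below. Sequences run from 250 bases before to 50 bases after the start of the gene and come from RefSeq on GRCh38.p14. Matched were 3 of the 4 members, PADI1, PADI2 and PADI4, and no sequence is printed for PADI3. Capitals mark matches on either strand, overlaps included, to CCAAT (NF-Y), GGGCGG (Sp1), TGANTCA (AP-1) and TATAAA (the TATA box), which 34.6%, 45%, 7.71% and 11.5% of the 35116 promoters in the table hold.
PADI2 (chr1:17119402-17119701, minus strand): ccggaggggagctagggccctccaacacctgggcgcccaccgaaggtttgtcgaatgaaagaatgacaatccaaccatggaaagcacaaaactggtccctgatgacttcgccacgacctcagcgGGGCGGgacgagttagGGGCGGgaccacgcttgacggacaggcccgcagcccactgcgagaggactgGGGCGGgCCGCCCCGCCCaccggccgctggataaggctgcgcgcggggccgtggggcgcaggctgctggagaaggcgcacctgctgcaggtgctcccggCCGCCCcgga
PADI1 (chr1:17204878-17205177, plus strand): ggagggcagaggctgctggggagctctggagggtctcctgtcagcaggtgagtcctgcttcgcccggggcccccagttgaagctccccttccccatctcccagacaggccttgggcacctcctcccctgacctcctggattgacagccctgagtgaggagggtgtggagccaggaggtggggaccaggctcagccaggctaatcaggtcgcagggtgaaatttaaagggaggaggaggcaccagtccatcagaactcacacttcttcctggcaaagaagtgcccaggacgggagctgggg
PADI4 (chr1:17307947-17308246, plus strand): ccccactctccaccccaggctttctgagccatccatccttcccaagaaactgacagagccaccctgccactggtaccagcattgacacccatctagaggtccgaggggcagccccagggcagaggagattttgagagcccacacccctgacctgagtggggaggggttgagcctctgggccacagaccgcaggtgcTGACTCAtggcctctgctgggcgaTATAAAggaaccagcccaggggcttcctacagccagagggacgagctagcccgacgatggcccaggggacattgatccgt

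PADI2 held 6 matches to GGGCGG and none to the other motifs, PADI4 held 1 match to TGANTCA and 1 to TATAAA, and PADI1 held none. These are matches of letters and not measured sites. Of 17 listed factors described at PADI promoters, 16 passed the filter, and their medians were -0.20 in U251 and -0.07 in U87 on the log2 scale, where the medians of all genes were -0.03 and -0.04.

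Past 2-fold were JUND, lower in U251, and FOSB, higher in U87, 1 of the 16 factors in each line. Among all genes 5.44% were lower past 2-fold in U251 and 1.92% were higher in U87. JUND, an AP-1 subunit, had an FPKM of 192 without and 88.6 with Bru in U251 (log2 ratio -1.12), and of 124 and 123 in U87 (-0.02). FOSB, another AP-1 subunit, had 8.84 without and 28.8 with Bru in U87 (log2 ratio 1.69), and 48.3 and 50.8 in U251 (0.07).

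The transcripts of proteins that deiminases act on were mostly within 2-fold. Of 26 listed substrates, 14 passed the filter, and 3 of these were lower past 2-fold in U251 and 1 in U87, with none higher, beside 5.44% lower and 3.36% higher of all genes in U251 and 1.41% and 1.92% in U87. The median log2 ratio of the 14 was 0.18 in U251 and 0.00 in U87. FN1, fibronectin, was lower in both lines, with an FPKM of 15.7 without and 5.66 with Bru in U251 (log2 ratio -1.45), and of 51.3 and 17.1 in U87 (-1.58). CXCL8, a neutrophil chemokine that citrullination alters, had 62.3 and 21.4 in U251 (log2 ratio -1.54) but 38.4 and 54.8 in U87 (0.51). E2F1, a cell cycle factor citrullinated by PADI4, had 59.0 and 26.4 in U251 (log2 ratio -1.16) and 72.6 and 63.1 in U87 (-0.20).

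Among the partners of deimination in the cornified layer and the hair shaft, such as transglutaminases and filaggrin-degrading proteases, 2 of 12 passed the filter. BLMH, bleomycin hydrolase, which breaks down filaggrin after deimination, had an FPKM of 14.9 without and 7.34 with Bru in U251 (log2 ratio -1.01), and of 9.50 and 7.07 in U87 (-0.42). The other one, CAPN1, had log2 ratios of -0.51 and -0.28. TCHH, trichohyalin, the main PADI3 target of the hair follicle, had 8 and 17 reads in U251 and 4 and 8 in U87, and TGM3, which crosslinks it, had at most 2 reads.

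Of the other enzymes that act on arginine, none of those past the filter was past 2-fold in either line. Among all genes 8.8% were past 2-fold in U251 and 3.34% in U87, so having none in such short lists says little. For free arginine and citrulline 6 of 15 listed genes passed the filter, with medians of -0.42 in U251 and -0.20 in U87 beside -0.03 and -0.04 for all genes. The most abundant of them, OAT, ornithine aminotransferase, had log2 ratios of -0.45 and -0.23, and SLC7A1, an arginine transporter, had -0.14 and -0.01. Of the 9 protein arginine methyltransferases, which modify the same residue, 8 were expressed and their log2 ratios ran from -0.44 to 0.82 in U251 and from -0.22 to 0.31 in U87. PRMT1, the main enzyme of asymmetric dimethylation, had an FPKM of 46.9 and 46.8 in U251 and of 47.2 and 43.9 in U87, and CARM1 had log2 ratios of -0.44 and -0.12.

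DDAH1 and its relative DDAH2 share a fold with the deiminases, and DDAH1 hydrolyses free methylated arginine to citrulline. DDAH2 had an FPKM of 39.3 and 48.3 in U251 and of 12.1 and 13.6 in U87. DDAH1 had 20.3 and 16.5 in U251 and only 0.182 and 0.214 in U87, so that, like PADI3, it was far higher in untreated U251 than in untreated U87, but the treated U251 library kept most of it.

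Over the 6 lists together, 48 of 82 genes passed the filter. In U251 5 of the 48 (10.4%) were lower past 2-fold and none was higher, beside 5.44% and 3.36% of all genes. The 5 became 4 with a pseudocount of 1, with scaling by total reads or with centring on the median. BLMH, only just past the cutoff at -1.01, was the gene that dropped out. In U87 1 (2.08%) was lower and 1 (2.08%) higher, beside 1.41% and 1.92%. Their medians were -0.17 and -0.08.

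**Figure D3:**
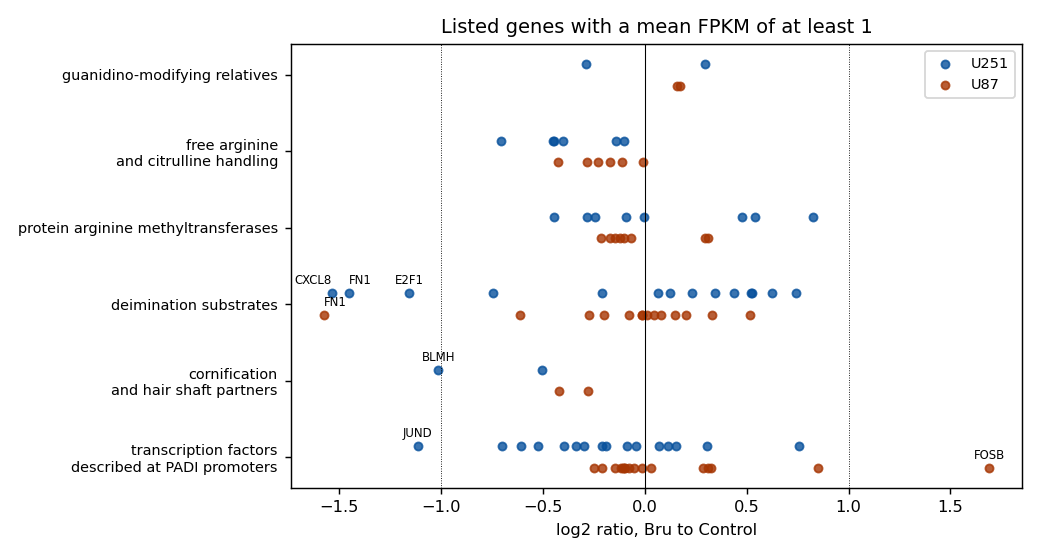
Bru to Control log2 ratio, on FPKM + 0.1 (horizontal axis) for the expressed genes of the 6 lists (rows), U251 in blue and U87 in brown, with dotted lines at 2-fold and names on the genes past them. CXCL8, FN1, E2F1, BLMH and JUND are past 2-fold in U251, BLMH only just at -1.01, and FN1 and FOSB in U87.

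**Figure D4:**
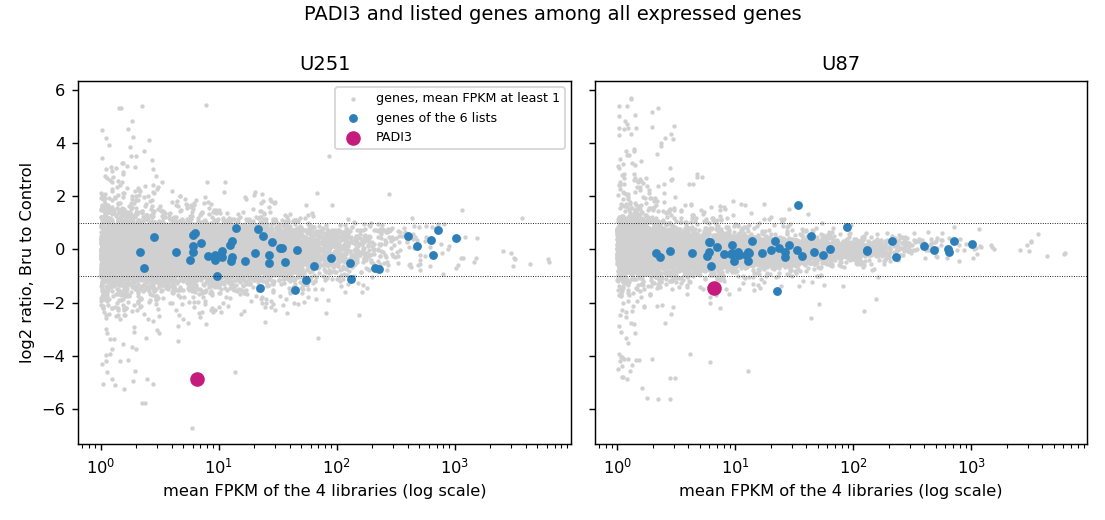
Log2 ratio of Bru to Control (vertical axis) against the mean FPKM of the 4 libraries on a log axis, for the 12949 expressed genes in grey, the genes of the 6 lists in blue and PADI3 in pink. PADI3 lies below nearly all genes in U251 at -4.89, and in U87 it lies at -1.46. Its mean FPKM of 6.55 comes mostly from U251 Control. Its place on the horizontal axis is therefore not its level in U87, an FPKM of 1.51 without and 0.486 with Bru.

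The protein-coding genes next to PADI3 in the U251 order were A2M, IGFBP5 and HAS2. A2M, a secreted protease inhibitor, had an FPKM of 9.67 without and 0.237 with Bru in U251 (log2 ratio -4.86) and 0 reads in both U87 libraries. IGFBP5, which binds insulin-like growth factors, had 53.0 and 2.09 in U251 (log2 ratio -4.60) and at most 8 reads in U87. HAS2, a hyaluronan synthase, had 7.99 and 0.644 in U251 (log2 ratio -3.44), and 5.69 and 3.74 in U87 (-0.59). PADI3, A2M and IGFBP5 thus had much lower levels in untreated U87 than in untreated U251, while HAS2 did not, with a log2 ratio of U87 to U251 of -0.48.

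The genes whose profile over the 4 libraries was nearest to that of PADI3, by Euclidean distance of log2(FPKM + 0.1) after subtraction of each gene's mean, were VGLL2, CCL2, CHRDL1, F2R and FUCA1. Their distances were between 1.91 and 2.21, so none matched it closely. CCL2, a monocyte chemokine, had FPKM of 22.0, 3.69, 1.37 and 0.636 in U251 Control, U251 Bru, U87 Control and U87 Bru. F2R, the thrombin receptor, had 119.9, 29.05, 23.2 and 14.03 in the same order. FUCA1, a lysosomal fucosidase, had 24.9, 4.80, 8.25 and 4.10.

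VGLL2, a cofactor of TEAD factors, had 4.34, 0.629, 0.471 and 0.412. CHRDL1, an antagonist of bone morphogenetic proteins, had 3.79, 0.867, 0.593 and 0.220. All 5 were highest in U251 Control and lowest in U87 Bru, as PADI3 was. These genes were picked for likeness to PADI3 over these same libraries, so the shared highest and lowest libraries are largely a product of that choice. For VGLL2 the lowest place rests on 16 reads in U87 Bru against 19 in U87 Control. The libraries between were not in a shared order. U87 Control was above U251 Bru in PADI3 and FUCA1, and below it in VGLL2, CCL2, CHRDL1 and F2R. In each of them the U251 log2 ratio, between -2.61 and -2.01, was smaller in size than the -4.89 of PADI3. None could be lower, since PADI3 ranked lowest of the protein-coding genes from which they were drawn.

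**Figure D5:**
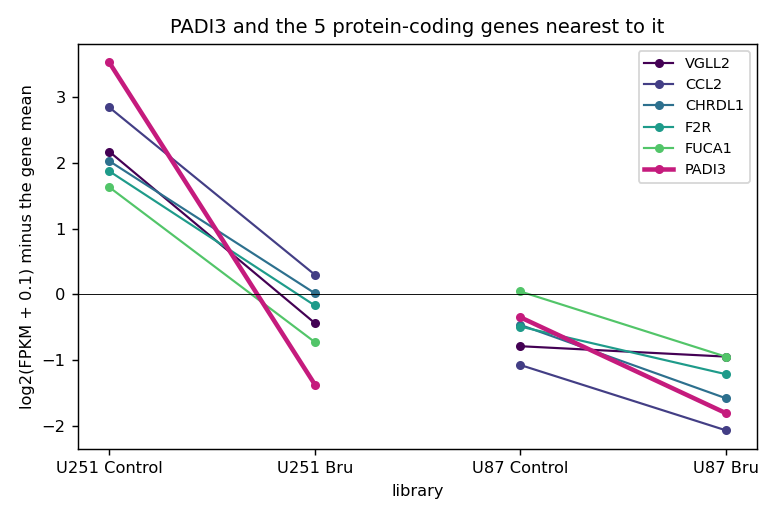
Log2(FPKM + 0.1) minus the gene's mean (vertical axis) in the 4 libraries (horizontal axis) for PADI3, in pink, and the 5 protein-coding genes nearest to it, with lines joining Control and Bru of 1 line. Every gene is highest in U251 Control, and PADI3 has the steepest line in U251, both largely a product of how the genes were picked.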

How the data were processed

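RNA libraries (NEB Next Ultra kit, per the labels) of U251 and U87, Control and Bru, were sequenced as paired-end reads, 1 library per condition. The authors deposited FPKM per gene with gene lengths. The submitters' processing notes name HISAT2 2.0.5, StringTie 1.3.3b, featureCounts 1.5.0-p3, DESeq2 1.16.1 and the build hg18, without roles, but start, end and strand of all 58735 deposited genes equal those of GENCODE 29 (GRCh38), which was used here. Whether counting used strand is not given in the sources used here.

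FPKM times gene length was a whole multiple of 1 step for 100% of values above 0 (tolerance 0.001 reads), which gave back reads and library sizes. The multiple was rounded to whole reads. Ratios are log2 on FPKM + 0.1, the expression filter was an average FPKM of 1 or more across the 4 libraries, and 2-fold means an absolute log2 ratio above 1. Intervals (95%) are Clopper-Pearson for ratios, Poisson for levels and conditional exact for differences between lines, all for counting error only, and reads carry no molecular identifiers. A gene at 0 was set against 3 reads. No test was run, since no condition has a replicate. Coding sequences were aligned with MAFFT 7.526, and the rest was done in Python 3.11.15 with scipy 1.17.1. Recovery and intervals were tested on simulated data.

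The members and lists were chosen with earlier results of these data known. Named are the PADI genes, genes within the cluster and the 3 nearest expressed protein-coding genes on each side, up to 4 genes per list past 2-fold (or the 2 most abundant), the 5 genes nearest in profile to PADI3 and the 3 next to it in the U251 order. Other values are named beside them for the markers, BX284668.5, CAPN1, TCHH and TGM3, chosen after their values were seen. Alternatives were other pseudocounts, filters and scalings, and the comparison of the Bru-treated lines was added after the values were seen. Some items are not reported here.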

Additional observations from a re-analysis of the deposited data

Results flagged for a closer look

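PADI3 differed between the lines in its response to Bru, with -4.89 in U251 and -1.46 in U87 as log2 ratios, a difference of -3.44 beyond the counting error of the reads. The U251 ratio is the value that PADI3 was selected on, so the difference is a description and no support. This compares 4 libraries and not replicated conditions. CXCL8 was lower in Bru in U251 (log2 ratio -1.54) and higher in U87 (0.51), 1 library per condition in each line, and the difference was not tested.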

How the results depend on the processing

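Of 96 recomputed values for 20 results, 80 stayed close to the reported ones, and none of the ratios past 2-fold changed sign. With a pseudocount of 1, PADI3 had a log2 ratio of -3.85 in U251, -0.76 in U87 and -3.29 between the untreated lines, and genes past 2-fold numbered 197 higher and 419 lower in U251 and 113 higher and 77 lower in U87. By construction a pseudocount of 1 shrinks low values. Without the filter on FPKM, 2424 genes were higher and 2539 lower in U251, 2531 higher and 1804 lower in U87, and 4 listed genes were higher in U87. With a minimum mean FPKM of 5, 150 were higher and 323 lower in U251, and 38 higher and 45 lower in U87. Over the pseudocounts and scalings, the log2 ratio of PADI3 ran from -5.06 to -3.85 in U251 and from -1.61 to -0.76 in U87, its difference between lines from -3.45 to -3.10, and the untreated PADI1 ratio of U87 to U251 from -1.87 to -0.37. Close means within 1.5 times a count, and for a ratio inside its counting interval or moved by no more than the distance from the middle of that interval to its end. The second condition alone holds with a pseudocount of 1 for PADI1 between lines (-0.37 untreated, -0.33 treated) and for PADI2 in U251 (-0.13, where 0.01 gave -1.89) and between untreated lines (-0.13, where 0.01 gave -1.86), all short of 2-fold at that setting. The depth limits PADI2, PADI4 and PADI6, which had at most 16, 9 and 2 reads. No paired analysis was possible because each condition has 1 library and the labels give no replicate numbers.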

Other observations

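Some listed genes below the expression filter differed past 2-fold by reads and had at least 20 reads in 1 library, a choice made after the values were seen. How many of all genes below the filter pass the same rule was not counted. The genes named here are therefore a description, without a background to set them against. NOS3, the endothelial nitric oxide synthase that makes citrulline from free arginine, had 5 reads without and 61 with Bru in U87, a log2 ratio by reads of 3.66 (95% exact interval 2.36 to 5.34), and 0 and 1 reads in U251. Hornerin (HRNR) and filaggrin (FLG), deimination targets of the epidermis, had 13 and 63 reads and 5 and 21 reads in U87, with log2 ratios by reads of 2.33 (1.45 to 3.32) and 2.12 (0.68 to 3.89). In U251 they had 26 and 21 reads and 484 and 398 reads, in the order Control and Bru. TGM5, an epidermal transglutaminase, had 84 reads without and 17 with Bru in U251, a log2 ratio by reads of -2.13 (-2.97 to -1.36). GFAP had 614 and 243 reads in U251, a log2 ratio by reads of -1.16 (-1.38 to -0.94).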
